A study of Homo sapiens with 6 samples.

Results

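The SLC25 genes encode the mitochondrial carriers, a family of membrane proteins that move metabolites, nucleotides and cofactors across the inner mitochondrial membrane. Members were the protein-coding genes of GENCODE 29 whose symbol is SLC25A followed only by digits, which gave 48 of the 19969 protein-coding genes in the tables. SLC25A6 has a second annotation entry for the same pseudoautosomal locus, which held no counts and was not counted as a member. The rule uses names and gene type only.

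The 6 RNA-seq libraries came from HCT116, an established human colorectal carcinoma line. Cells of the treated group were given auxin for 16 h (n = 3), and cells of the control group were given DMSO (n = 3). Auxin is a plant hormone used to trigger breakdown of a degron-tagged protein, but the labels name no tagged protein, no clone and no degron allele, so what the 2 groups share beyond the line is not given in the sources used here. The epithelial markers EPCAM and KRT8 were at 213 to 298 and 613 to 982 TPM and the leukocyte marker PTPRC was at 0 in all 6 libraries. Depth was 270.8 to 546.1 M estimated counts in the DMSO libraries and 234.0 to 625.9 M in the auxin libraries, with replicate 1 the deepest of each group.

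Carriers share a fold of repeated transmembrane units around a central substrate site, which opens in turn to either side of the membrane. They feed the citric acid cycle, exchange ATP for ADP, and bring in phosphate, coenzymes, iron and glutathione. Most are made in the cytosol and inserted into the inner membrane through the TIM22 route. In cells of this kind they link mitochondrial metabolism to the synthesis of lipids, nucleotides and amino acids.

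Sequences are shown first for SLC25A25, SLC25A39 and SLC25A11, in which the transcript in use differed most between the groups, since gene totals hide these changes. SLC25A3 is shown too, although its main transcript moved less in share than transcripts of SLC25A22 and SLC25A42. SLC25A25 has alternative first exons on the plus strand of GRCh38, at chr9:128068201-128068580 in transcript SLC25A25-203 and at chr9:128098304-128098725 in transcript SLC25A25-201, whose starts lie 30103 bases apart. They supply 261 and 159 coding bases, and the full coding lengths are 503 and 469 codons. The first stretch below is the 219 bases before the upstream first exon (chr9:128067982-128068200), with GC boxes (GGGCGG, either strand) in capitals. The second is 30 bases at the downstream first exon (chr9:128098296-128098325), with a cAMP response element (TGACGTCA) in capitals. Both come from the RefSeq promoter table on GRCh38.p14.
SLC25A25-203 upstream: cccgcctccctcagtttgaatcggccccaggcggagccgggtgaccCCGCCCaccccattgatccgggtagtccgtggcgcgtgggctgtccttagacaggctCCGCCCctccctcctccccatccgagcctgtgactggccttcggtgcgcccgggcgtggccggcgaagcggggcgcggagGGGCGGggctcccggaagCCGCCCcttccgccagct
SLC25A25-201 start: ggagggagcggTGACGTCAgccctgatctt
The 300-base RefSeq window of the upstream start was 76.3% GC with 5 GC boxes and no response element. The window of the downstream start was 56.0% GC with 1 response element and no GC box. Over all 34943 windows of that length, 44.9% held GGGCGG on either strand and 1.84% held TGACGTCA, a palindrome. Of the 51 windows of the carrier genes, which covered 40 of the 48, 34 held the first and 3 the second, those of SLC25A25, SLC25A33 and SLC25A36. These matches are letters in a window, not measured sites.

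The next sequences are the segments that set apart transcripts whose share of the gene was larger with auxin in SLC25A39, SLC25A11 and SLC25A3, each with 20 flanking exon bases in lower case and the segment in capitals. SLC25A39-215 keeps intron 10 of the 11 in the full-length transcript, 78 bases at chr17:44320277-44320354 on the minus strand. SLC25A11-203 keeps intron 5 of 7, 85 bases at chr17:4938254-4938338 on the minus strand. SLC25A11-202 skips a coding exon of 153 bases, 51 codons, at chr17:4939060-4939212. SLC25A3-211 skips a coding exon of 111 bases, 37 codons, at chr12:98601171-98601281 on the plus strand. All were read from the GENCODE 29 transcripts on GRCh38.
SLC25A39-215 retained intron: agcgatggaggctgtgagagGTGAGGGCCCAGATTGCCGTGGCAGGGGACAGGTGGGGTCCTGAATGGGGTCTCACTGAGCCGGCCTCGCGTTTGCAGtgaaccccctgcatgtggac
SLC25A11-203 retained intron: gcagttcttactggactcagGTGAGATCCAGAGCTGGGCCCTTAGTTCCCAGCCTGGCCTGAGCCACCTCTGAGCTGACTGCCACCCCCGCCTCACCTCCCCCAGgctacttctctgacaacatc
SLC25A11-202 skipped exon: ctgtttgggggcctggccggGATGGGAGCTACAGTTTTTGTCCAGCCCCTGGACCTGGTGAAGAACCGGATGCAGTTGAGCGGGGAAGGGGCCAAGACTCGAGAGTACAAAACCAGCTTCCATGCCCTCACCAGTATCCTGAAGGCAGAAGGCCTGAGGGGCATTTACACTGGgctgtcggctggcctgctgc
SLC25A3-211 skipped exon: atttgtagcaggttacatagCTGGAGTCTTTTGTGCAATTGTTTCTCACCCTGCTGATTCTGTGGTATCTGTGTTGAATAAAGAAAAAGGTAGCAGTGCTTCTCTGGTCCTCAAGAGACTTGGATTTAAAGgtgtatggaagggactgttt
Both retained introns begin with GT and end with AG, and their GC was 66.7% and 67.1%.

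After 16 h of auxin, carriers of dicarboxylates, tricarboxylates and glutathione were lower, several carriers of nucleotides and cofactors were higher, and the most abundant carriers, SLC25A5 and SLC25A3, did not pass the test without the replicate block (SLC25A5 was lower with it, edgeR adjusted p = 0.00278, and in 3 of 3 pairs). Of the 44 members with enough counts to test, 9 were higher and 19 lower at an edgeR adjusted p under 0.05. Here edgeR stands for its quasi-likelihood test with Benjamini-Hochberg adjustment over 19725 genes. It was fitted without the replicate block unless the block is named. Over all genes tested 25.4% were higher and 26.9% lower, and over the 14154 protein-coding genes tested 27.8% were higher and 33.4% lower. Of the 44, 7 were lower by at least 2-fold, against 16.0% of protein-coding genes, and 1 was higher by at least 2-fold, against 4.80%. The median log2 fold change was -0.15 in the carriers and -0.01 in protein-coding genes. Library-scaled counts (CPM, with TMM factors) did not overlap between the groups in 32 of the 44 carriers (72.7%), against 68.1% of protein-coding genes. The remaining 16 members did not pass the test without the block. SLC25A18, SLC25A31, SLC25A34 and SLC25A47 had too few counts, at no more than 0.03 TPM in any library.

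These counts moved with the scale. Upper-quartile factors, which raised the median of all genes by 0.12 on the log2 scale, gave 12 higher and 15 lower, and offsets corrected for transcript GC gave 14 and 14. With the replicate number as a block, 13 were higher and 25 lower. The calls over all genes moved as well. Among all genes tested, higher calls made up 48.5% of calls in the main fit and 59.7% with upper-quartile factors. That share was 59.8% with GC-corrected offsets. With the block, 7005 of 19725 genes were higher and 6789 lower, against 5010 and 5311 without it. Members called with the block but not without it, on the same scale and libraries, included SLC25A5, SLC25A13, SLC25A16, SLC25A36, SLC25A41 and SLC25A44, all lower, and SLC25A38, SLC25A46 and SLC25A48, all higher.

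**Figure D1:**
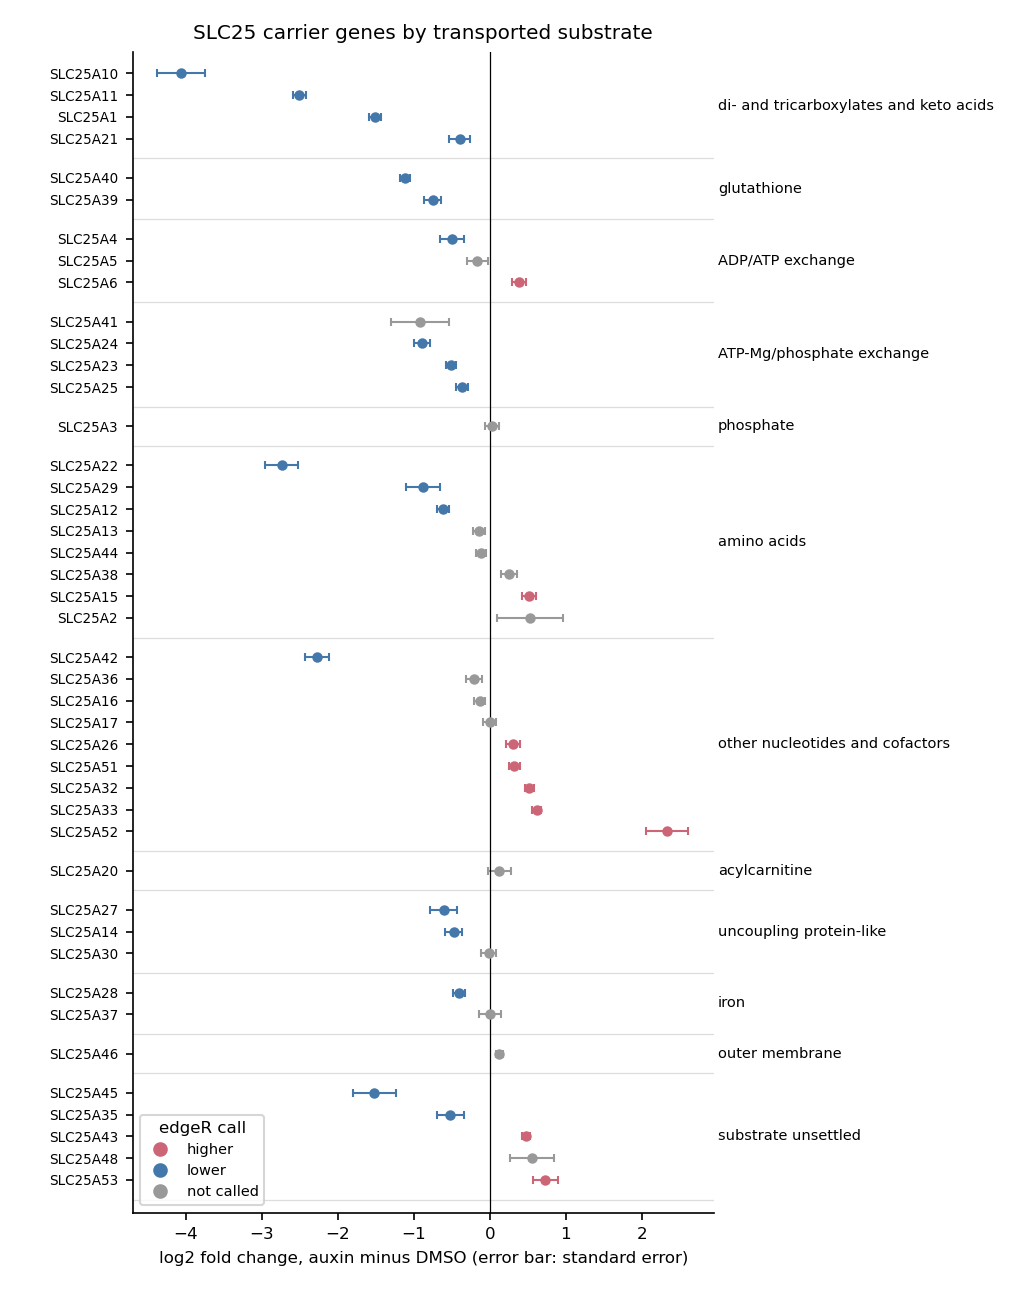
Each point is the log2 fold change (auxin minus DMSO) of 1 of 43 tested carriers with its standard error, grouped by substrate and coloured by the edgeR call. All 4 di- and tricarboxylate carriers and both glutathione carriers lie left of 0, while 5 nucleotide and cofactor carriers were called to the right.

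Of the carriers of di- and tricarboxylates and keto acids 4 of 4 were called lower, beside 33.4% of protein-coding genes, and their median log2 fold change was -2.01. No test was run over this list. SLC25A1, SLC25A10 and SLC25A11 have exon GC of 68.7%, 65.2% and 58.6% and 1160, 6160 and 453 bases of intron. Of protein-coding genes with GC over the median and introns up to the median, 52.5% were lower, and 34.3% by at least 2-fold. SLC25A10 (GRCh38 chr17:81712236-81721016), which exchanges malate or succinate for phosphate, was at 24.6, 14.7 and 15.4 CPM in the DMSO libraries and 1.49, 0.829 and 0.916 CPM in the auxin libraries. It fell by 4.06 in log2 terms, or 16.7-fold (SE 0.31, edgeR adjusted p = 5.2e-05), the most of any carrier tested. The groups lay far apart, and replicate 1, the deepest, was the highest of each.

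SLC25A11 (chr17:4937130-4940251), the oxoglutarate/malate carrier of the malate-aspartate shuttle, was at 27.8, 26.6 and 27.6 CPM with DMSO and 5.21, 4.50 and 4.71 CPM with auxin. The log2 fold change was -2.51 (SE 0.08, edgeR adjusted p = 2.16e-06), with little spread within either group. It overlaps RNF167 (log2 fold change -1.79) by 244 bases on the opposite strand. SLC25A1 (chr22:19175575-19178830), which exports citrate for fatty acid and sterol synthesis, was at 18.2, 20.5 and 20.8 CPM with DMSO and 6.72, 7.21 and 6.99 CPM with auxin (log2 fold change -1.51, SE 0.08, edgeR adjusted p = 1.25e-05). Its groups did not overlap either. Its call was lost with GC-corrected offsets (log2 fold change -0.22, edgeR adjusted p = 0.382) and held when the replicate block was added to them (-0.21, edgeR adjusted p = 0.00327). SLC25A21, the oxodicarboxylate carrier of lysine and tryptophan breakdown, fell by 0.40 (SE 0.14, edgeR adjusted p = 0.0437), a call that was lost when any of 5 libraries was left out in turn (edgeR adjusted p 0.0732 to 0.136), all except DMSO replicate 1.

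Both glutathione importers were lower, beside 33.4% of protein-coding genes. SLC25A40 (chr7:87833568-87876357) was at 39.8, 39.4 and 38.1 CPM with DMSO and 19.1, 18.2 and 16.8 CPM with auxin (log2 fold change -1.12, SE 0.07, edgeR adjusted p = 1.92e-05). SLC25A39, its relative, was at 100.5, 88.1 and 85.0 CPM with DMSO and 62.2, 49.7 and 50.3 CPM with auxin (log2 fold change -0.75, SE 0.11, edgeR adjusted p = 0.000925). Neither pair of groups overlapped. The 2 genes differ in composition, with exon GC of 33.4% in SLC25A40 and 61.9% in SLC25A39. With GC-corrected offsets SLC25A40 stayed lower (-1.04), whereas SLC25A39 turned higher (0.23, edgeR adjusted p = 0.00184).

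The ADP/ATP carriers, which exchange cytosolic ADP for mitochondrial ATP, moved in different directions. SLC25A5, the main form, was at 526, 652 and 642 CPM with DMSO and 446, 580 and 599.5 CPM with auxin, and these ranges overlapped (log2 fold change -0.16, SE 0.14, edgeR adjusted p = 0.352, and 0.00278 with the replicate block). As TPM, in contrast, SLC25A5 was at 616, 520 and 532.5 with DMSO and 427, 432 and 474 with auxin, without overlap. SLC25A4, the form typical of heart and muscle, was at 27.1, 36.3 and 37.3 CPM with DMSO and 19.9, 24.1 and 27.6 CPM with auxin (log2 fold change -0.49, SE 0.16, edgeR adjusted p = 0.0339). Its groups overlapped narrowly, and the call was lost when any of 4 libraries was left out, namely DMSO replicates 2 and 3 and auxin replicates 1 and 2 (edgeR adjusted p 0.0661 to 0.0927). SLC25A6, the third form, was at 73.8, 89.8 and 87.4 CPM with DMSO and 100.8, 113 and 115 CPM with auxin, and rose by 0.39 (SE 0.09, edgeR adjusted p = 0.0101) with no overlap. With GC-corrected offsets it rose by 1.52 (edgeR adjusted p = 0.000417). Their coding sequences are alike in 77.2% to 78.7% of 894 aligned bases, and the posterior SD of each gene's count was at most 0.000118% of it.

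On the TPM scale, which is per length, SLC25A6 made up 7.46%, 7.29% and 7.17% of the ADP/ATP carrier transcripts with DMSO and 11.5%, 9.96% and 9.85% with auxin. SLC25A5 went from 91.0% ± 0.103 to 88.3% ± 0.950 (SD, n = 3), and SLC25A4 from 1.74% ± 0.0443 to 1.29% ± 0.0623. None of the 3 pairs of groups overlapped, which in a two-sided exact permutation test gives p = 0.1, the smallest that 3 against 3 allows. SLC25A31, the testis form, was near 0 throughout.

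The ATP-Mg/phosphate carriers, several of them regulated by calcium, set the matrix adenine nucleotide pool. They were lower in 3 of 4 cases, beside 33.4% of protein-coding genes. SLC25A24 was at 89.8, 109 and 112 CPM with DMSO and 50.1, 60.3 and 57.3 CPM with auxin (log2 fold change -0.89, SE 0.11, edgeR adjusted p = 0.000389). SLC25A23 was at 135, 130.2 and 129.7 CPM with DMSO and 96.9, 85.6 and 95.6 CPM with auxin (log2 fold change -0.51, SE 0.07, edgeR adjusted p = 0.000577). SLC25A25 was at 13.9, 14.6 and 15.8 CPM with DMSO and 11.2, 11.4 and 11.7 CPM with auxin (log2 fold change -0.37, SE 0.08, edgeR adjusted p = 0.00539). In all 3 the groups were apart, but with GC-corrected offsets SLC25A23 (0.07) and SLC25A25 (0.27) changed sign without passing the test, and SLC25A25 passed as higher when the replicate block was added (0.27, edgeR adjusted p = 0.000723). SLC25A41 was under 0.16 CPM in every library. The phosphate carrier SLC25A3, which supplies ATP synthase, was at 441, 513 and 520.2 CPM with DMSO and 457, 523 and 529 CPM with auxin, and these ranges overlapped (log2 fold change 0.03, SE 0.09, edgeR adjusted p = 0.788). As TPM, in contrast, SLC25A3 was at 466, 371 and 392 with DMSO and 369, 334 and 360 with auxin, lower in every auxin library.

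**Figure D2:**
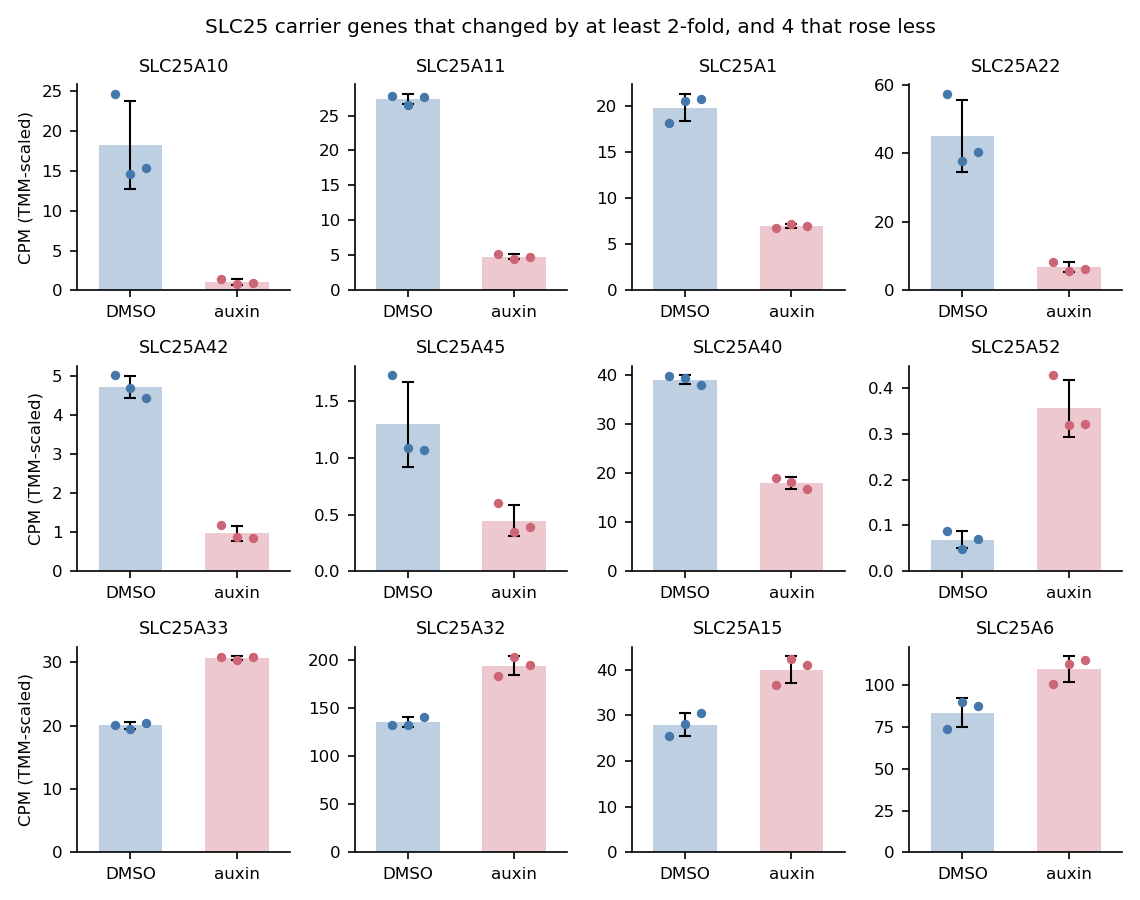
CPM (TMM-scaled) in each library for the 8 carriers that changed by at least 2-fold and 4 that rose less, with bars at the mean and error bars of 1 SD (n = 3). In all 12 panels the auxin points and the DMSO points do not overlap, which the choice of called carriers makes likely. Groups did not overlap in 72.7% of the tested carriers and 68.1% of protein-coding genes. SLC25A4, called lower with groups that overlap, is not drawn.

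Among the amino acid carriers 1 rose (12.5%) and 3 fell (37.5%) of 8 tested, beside 27.8% and 33.4% of protein-coding genes. SLC25A22 (chr11:790475-798333), a glutamate carrier, was at 57.1, 37.7 and 40.4 CPM with DMSO and 8.35, 5.52 and 6.33 CPM with auxin (log2 fold change -2.74, SE 0.21, edgeR adjusted p = 5.56e-05). As in SLC25A10, replicate 1 was the highest of each group, and every auxin library was below every DMSO library. SLC25A12, an aspartate/glutamate carrier of the malate-aspartate shuttle, was at 24.4, 27.7 and 28.6 CPM with DMSO and 16.5, 17.9 and 18.2 CPM with auxin (log2 fold change -0.62, SE 0.08, edgeR adjusted p = 0.000674). It shares 61235 bases with HAT1 on the opposite strand, and the use of strand in counting is not given in the sources used here. HAT1 was itself lower, by 0.71. SLC25A13, the close relative of SLC25A12, was at 28.4 to 33.6 CPM with DMSO and 26.9 to 28.8 CPM with auxin (log2 fold change -0.14, SE 0.08, edgeR adjusted p = 0.158, and 0.0298 with the replicate block).

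SLC25A15, which brings ornithine into the matrix for the urea cycle, was at 25.4, 28.0 and 30.5 CPM with DMSO and 36.7, 42.3 and 41.1 CPM with auxin. It rose by 0.52 (SE 0.09, edgeR adjusted p = 0.00233), and its groups did not overlap. SLC25A2, its intronless relative, lies inside TAF7 on the same strand and was under 0.05 CPM in every library (log2 fold change 0.53, SE 0.43, edgeR adjusted p = 0.339). SLC25A29, a carrier of basic amino acids, fell by 0.88 (SE 0.22, edgeR adjusted p = 0.0134). That call was lost without auxin replicate 3 (edgeR adjusted p = 0.0525) and with GC-corrected offsets (log2 fold change -0.02).

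Of 10 carriers of other nucleotides and cofactors, 5 rose and 1 fell, beside 27.8% and 33.4% of protein-coding genes. SLC25A42 (chr19:19063999-19112888), which imports coenzyme A, was the exception, at 5.02, 4.69 and 4.44 CPM with DMSO and 1.19, 0.870 and 0.862 CPM with auxin (log2 fold change -2.27, SE 0.16, edgeR adjusted p = 3.51e-05). SLC25A16, a relative also tied to coenzyme A, was at 10.6 to 10.8 CPM with DMSO and 9.43 to 10.1 CPM with auxin (log2 fold change -0.13, SE 0.07, edgeR adjusted p = 0.155, and 0.0414 with the replicate block).

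SLC25A33, a pyrimidine nucleotide carrier, was at 20.2, 19.5 and 20.5 CPM with DMSO and 30.8, 30.4 and 30.9 CPM with auxin (log2 fold change 0.62, SE 0.06, edgeR adjusted p = 0.000108). The spread within each group was small against this step. SLC25A36, the other pyrimidine nucleotide carrier, was at 107, 134 and 120.3 CPM with DMSO and 99.2, 116 and 97.4 CPM with auxin, with overlap (log2 fold change -0.21, SE 0.10, edgeR adjusted p = 0.129, and 0.00156 with the replicate block). SLC25A32, linked to folate and flavin import, was at 132, 133 and 142 CPM with DMSO and 184, 204 and 196 CPM with auxin (log2 fold change 0.52, SE 0.06, edgeR adjusted p = 0.000433). It overlaps DCAF13 (log2 fold change 0.38) by 476 bases on the opposite strand. SLC25A26, which imports S-adenosylmethionine, rose by 0.31 (SE 0.09, edgeR adjusted p = 0.0264), a call lost when any of 4 libraries was left out, namely DMSO replicates 1 and 2 and auxin replicates 2 and 3 (edgeR adjusted p 0.0638 to 0.0939).

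The NAD carrier SLC25A51 was at 21.8, 19.1 and 19.8 CPM with DMSO and 26.4, 25.0 and 24.7 CPM with auxin (log2 fold change 0.32, SE 0.07, edgeR adjusted p = 0.00785, and 0.0501 without DMSO replicate 3). SLC25A52 is an intronless near copy, identical in 97.6% of 891 aligned coding bases. It was at 0.0880, 0.0497 and 0.0700 CPM with DMSO and 0.427, 0.318 and 0.321 CPM with auxin (log2 fold change 2.33, SE 0.27, edgeR adjusted p = 0.000362). Its groups were apart, but the posterior SD of its count reached 10.2% of the count, and reads of such copies can be split between them, so its level is uncertain.

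The iron importers, which supply haem and iron-sulphur cluster synthesis, did not move together. SLC25A28 was at 28.4, 24.6 and 26.0 CPM with DMSO and 20.8, 18.9 and 19.9 CPM with auxin (log2 fold change -0.41, SE 0.08, edgeR adjusted p = 0.00372), and it turned higher with GC-corrected offsets (0.23, edgeR adjusted p = 0.0107). SLC25A37 was at 98.4, 88.7 and 74.0 CPM with DMSO and 105, 77.9 and 78.6 CPM with auxin, with overlap (log2 fold change 0.00, SE 0.15, edgeR adjusted p = 0.994). Of the carriers like uncoupling proteins, SLC25A14 (log2 fold change -0.48, SE 0.11, edgeR adjusted p = 0.00796) and SLC25A27 (-0.61, SE 0.18, edgeR adjusted p = 0.0245) were lower. SLC25A27 was under 1.2 CPM and lost its call without DMSO replicate 1, auxin replicate 2 or auxin replicate 3 (edgeR adjusted p 0.0665 to 0.0851). SLC25A30 did not pass the test (log2 fold change -0.01, SE 0.10, edgeR adjusted p = 0.911). The acylcarnitine carrier SLC25A20 and the outer membrane protein SLC25A46 did not pass the test without the replicate block. SLC25A46 was higher with it (edgeR adjusted p = 0.00514).

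Of 5 tested carriers whose substrate is less settled, 2 rose and 2 fell, beside 27.8% and 33.4% of protein-coding genes. SLC25A45 (chr11:65375192-65383701) was at 1.73, 1.09 and 1.07 CPM with DMSO and 0.605, 0.347 and 0.393 CPM with auxin (log2 fold change -1.52, SE 0.29, edgeR adjusted p = 0.00363). SLC25A43 rose by 0.47 (SE 0.05, edgeR adjusted p = 0.000329) and SLC25A53 by 0.73 (SE 0.16, edgeR adjusted p = 0.00728). Of the SLC25A53 TPM, 99.1% with DMSO and 98.0% with auxin was assigned to SLC25A53-201. That transcript is annotated as a processed transcript, not as protein-coding, so the rise is hardly one of carrier-coding RNA. SLC25A35 fell by 0.52 (SE 0.18, edgeR adjusted p = 0.0409). Its call was lost when any of 4 libraries was left out, namely DMSO replicate 1 and each auxin replicate (edgeR adjusted p 0.0611 to 0.122). It overlaps RANGRF by 1596 bases on the opposite strand, which fell by 3.78.

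Between genes, levels were very uneven. SLC25A5 and SLC25A3 averaged 500.2 and 382 TPM over the 6 libraries, 6.52 times as much for SLC25A3 as for the third, SLC25A32, at 58.6 TPM. SLC25A39, SLC25A6, SLC25A23, SLC25A36, SLC25A37, SLC25A28 and SLC25A24 followed at 56.4 to 23.2 TPM. This rank pools both groups: SLC25A39 was above SLC25A32 in every DMSO library (70.4 ± 20.5 against 51.9 ± 10.9 TPM, SD, n = 3) and below it in every auxin library (42.5 ± 10.5 against 65.3 ± 5.63 TPM). In all, 37 members averaged at least 1 TPM and 21 at least 10 TPM.

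The summed TPM of the 48 carriers was 1932, 1453 and 1511 with DMSO and 1381, 1218 and 1318 with auxin, lower in every auxin library (two-sided exact permutation p = 0.1, the smallest possible). SLC25A5 and SLC25A3 made up 59.5% ± 3.03 of this sum with DMSO and 61.3% ± 3.17 with auxin (SD, n = 3). Neither gene passed the edgeR test without the replicate block, so the sum does not describe the family as a whole. Nuclear protein-coding genes held 44.3% to 59.2% of all TPM with DMSO and 43.5% to 50.4% with auxin, with replicate 1 the highest of each group. Rescaled to those genes, the sum was 3264 ± 13.7 with DMSO and 2774 ± 29.7 with auxin (SD, n = 3, exact permutation p = 0.1), with a much smaller spread. As CPM it was 2484 ± 122 and 2271 ± 135 (SD, n = 3), and those ranges overlapped (exact permutation p = 0.2). These values are scaled within each library, so they do not measure cell number or a change in the total RNA of a cell.

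**Figure D3:**
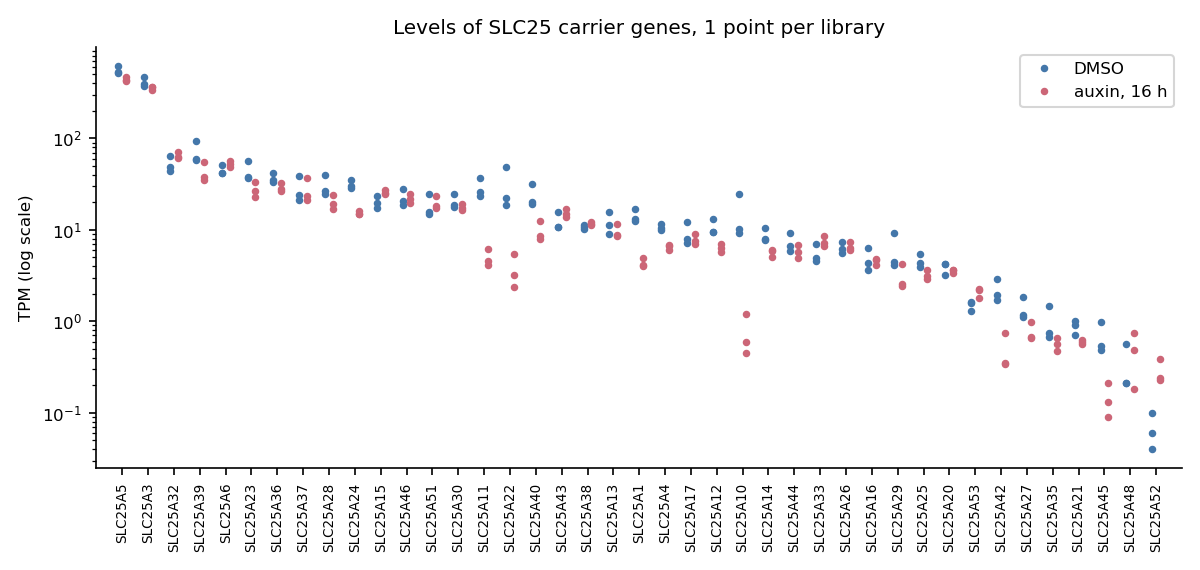
TPM (log scale) of carriers with a mean of at least 0.1 TPM, ranked by its mean over the 6 libraries, with 1 point per library. SLC25A5 and SLC25A3 stand above all others, and SLC25A11, SLC25A22, SLC25A40, SLC25A1 and SLC25A10 show auxin points well below their DMSO points.

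Transcript shares, the part of a gene's TPM assigned to each annotated transcript, moved in 9 of the 36 carriers with at least 2 transcripts and a mean of at least 1 TPM. A share was counted as moved when the groups did not overlap, the mean share was at least 5% and the means differed by at least 10 percentage points, which held for 21.0% of protein-coding genes under the same limits. These shares rest on the authors' model, which assigns reads among overlapping transcripts. Of 14 such transcripts, 8 rose and 6 fell. The 6 that fell were all annotated as protein-coding, and the 8 that rose were 4 protein-coding, 3 retained-intron and 1 marked for nonsense-mediated decay. This split by direction and type was not counted over all protein-coding genes, so it cannot be read as particular to the carriers.

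The largest shift was the change of first exon in SLC25A25. SLC25A25-203, from the upstream start, held 77.7%, 75.9% and 74.5% of the gene's TPM with DMSO and 43.9%, 43.9% and 41.9% with auxin. SLC25A25-201 begins with the downstream first exon, in which the response element printed above lies. SLC25A25-201 held 15.8%, 18.7% and 16.4% with DMSO and 51.9%, 47.1% and 53.4% with auxin. The main transcript was thus the upstream form in every DMSO library and the downstream form in every auxin library. In TPM the upstream form went from 3.49 ± 0.655 to 1.39 ± 0.169 and the downstream form from 0.770 ± 0.0781 to 1.63 ± 0.257 (SD, n = 3). The posterior SD of these counts was at most 4.06% of the gene's count and 12.3% of the transcript's own.

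In SLC25A39 the full-length SLC25A39-201 held 62.6%, 60.9% and 59.4% with DMSO and 36.2%, 39.9% and 38.7% with auxin. SLC25A39-215, the short 3' transcript with the retained intron shown above, held 9.91%, 10.6% and 10.2% with DMSO and 32.7%, 37.5% and 39.6% with auxin. Its TPM went from 7.18 ± 1.86 to 15.3 ± 2.36 (SD, n = 3) while the gene's total went down. In SLC25A11, SLC25A11-205, a model without an annotated end, held 52.4%, 51.4% and 50.7% with DMSO and 25.7%, 34.9% and 29.6% with auxin. SLC25A11-202, which lacks the 153-base exon, held 11.3%, 11.4% and 11.02% with DMSO and 24.8%, 26.6% and 28.0% with auxin. Its TPM was lower, at 3.23 ± 0.842 and 1.30 ± 0.222 (SD, n = 3), so its larger share was a share of a smaller total. The retained-intron transcript SLC25A11-203 went from 7.72% ± 0.918 to 18.4% ± 4.33 of that gene, while its TPM went from 2.24 ± 0.712 to 0.947 ± 0.442 (SD, n = 3).

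SLC25A3, whose gene level did not pass the test, changed in the transcripts that make it up. SLC25A3-217 held 93.7%, 94.9% and 95.1% with DMSO and 82.6%, 86.3% and 84.7% with auxin, a change in means of -10.0 percentage points that only just met the limit. The rest went mainly to SLC25A3-201, which keeps a 234-base intron before the coding region (1.35% to 1.53% with DMSO and 5.63% to 7.47% with auxin), and to SLC25A3-211, which skips the 111-base exon and keeps that intron too (0.715% to 1.52% and 4.36% to 6.61%). These 2 transcripts were named after their values were seen. The other moved shares were in SLC25A1, SLC25A10, SLC25A22, SLC25A29 and SLC25A42.

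**Figure D4:**
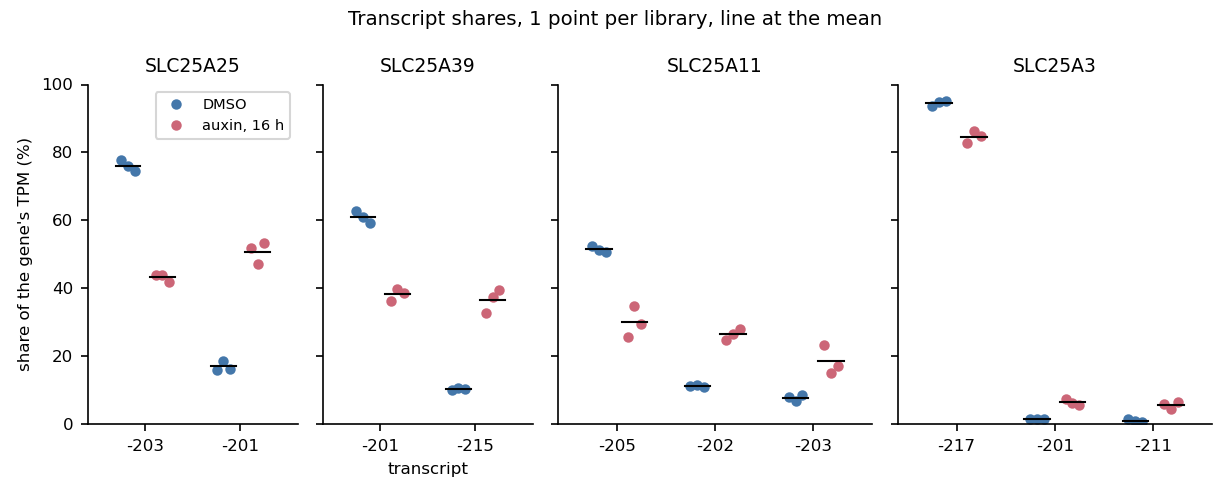
Share of each gene's TPM (%) held by the named transcripts of SLC25A25, SLC25A39, SLC25A11 and SLC25A3, 1 point per library with a line at the mean. The SLC25A25 points change places between the upstream and the downstream form, and no auxin point falls within the DMSO range of the same transcript.

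Retained-intron transcripts were then set against protein-coding transcripts of the same gene. Of 16 carriers with both kinds, 2 had a higher ratio and 0 a lower one (limma on the log2 ratio, Benjamini-Hochberg adjustment over 5589 genes), against 20.1% higher and 1.97% lower over those genes. At an unadjusted p under 0.05, limma gave 4 higher and 0 lower. SLC25A39 rose by 2.39 on the log2 scale (SE 0.19, limma adjusted p = 0.000143), with retained-intron transcripts at 17.9%, 15.6% and 14.7% of its TPM with DMSO and 51.0%, 48.8% and 50.7% with auxin. SLC25A11 rose by 1.63 (SE 0.26, limma adjusted p = 0.00334), from 9.97%, 7.97% and 9.74% to 30.5%, 19.6% and 21.0%. The other 14 did not pass limma's test, and the median over the 16 was 0.01 against 0.09 over all genes in that test. With the replicate block, 4 passed, SLC25A12 (limma adjusted p = 0.00827) and SLC25A42 (limma adjusted p = 0.0491) in addition.

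The fold changes were then set beside gene structure, with no test of a difference between carriers and other genes. Across the 44 carriers, Spearman's rho of the log2 fold change with exon GC was -0.38 and Pearson's r -0.50, beside -0.36 and -0.42 across 14145 protein-coding genes. With summed intron length rho was 0.22 and r -0.06, beside 0.21 and 0.14. These are descriptions across genes of the same libraries, and genes are not independent replicates. Of the 24 carriers above the median GC of protein-coding genes (48.8%) 12 were lower, and of such genes in general 46.8% were. Of the 20 carriers at or below it 7 were lower, and of such genes in general 19.9% were. Of the 19 carriers with high GC and introns up to the median of 27359 bases, 10 were lower (52.6%), beside 52.5% of such genes, and 5 by at least 2-fold (26.3%), beside 34.3%. Of the 13 with low GC and longer introns 5 were lower (38.5%), beside 21.3%. Of the 7 with low GC and introns up to the median 2 were lower (28.6%), beside 17.4%. Of the 5 with high GC and longer introns 2 were lower, beside 35.6%.

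The 4 most reduced carriers, SLC25A10, SLC25A22, SLC25A11 and SLC25A42, had exon GC of 65.2%, 65.3%, 58.6% and 59.3%. SLC25A6, with 64.5% GC and 4409 bases of intron, rose, and SLC25A40, with the lowest GC of all members (33.4%) and 37709 bases of intron, fell. With GC-corrected offsets rho across the carriers was 0.01 with GC and -0.01 with intron length. Pearson's r was -0.16 and -0.21, beside -0.03 and -0.00285 across protein-coding genes. These offsets are built to remove the relation with GC over all genes, not within the carriers. These 4 and SLC25A40 kept their call under that correction, with smaller log2 fold changes of -2.91 for SLC25A10, -1.57 for SLC25A22, -1.77 for SLC25A11 and -1.48 for SLC25A42. That of SLC25A40 was -1.04, and that of SLC25A45 was -0.73. Whether composition, splicing or synthesis sets these differences was not tested.

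**Figure D5:**
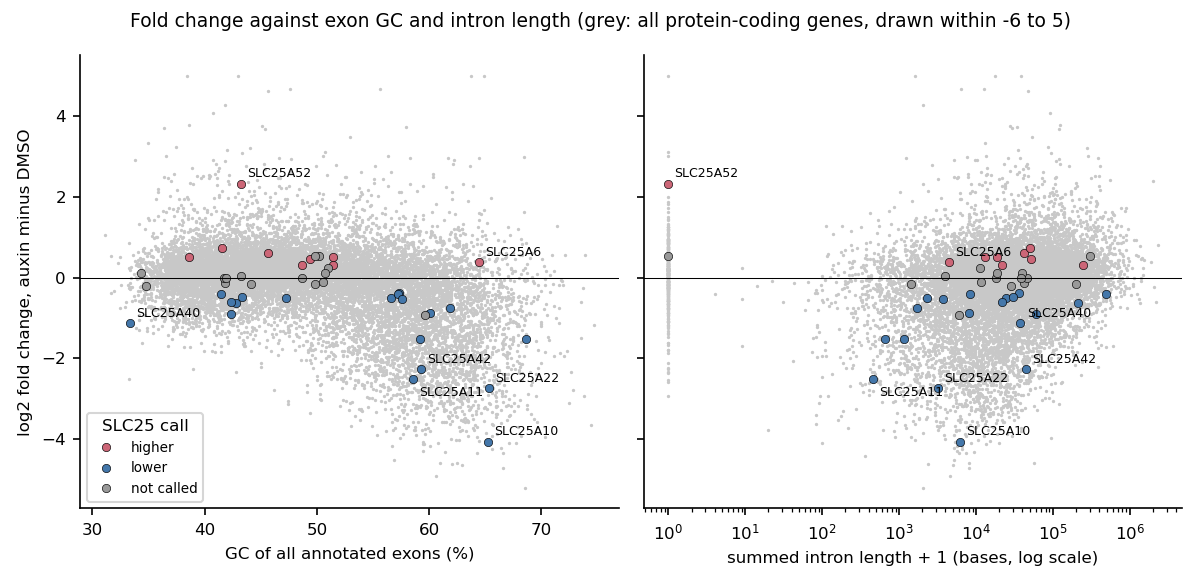
Log2 fold change (auxin minus DMSO) against exon GC (%, left) and summed intron length plus 1 base (log scale, right), with 43 tested carriers coloured by call over all protein-coding genes in grey. Of the 7 carriers that fell by at least 2-fold, 6 lie at 58.6% GC or more and SLC25A40 lies at 33.4%.

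Genes that work with the carriers were taken from 3 lists of 32 genes, of which 31 were tested, 9 rose and 8 fell, beside 27.8% and 33.4% of protein-coding genes. In the TIM22 import route, which inserts carriers into the inner membrane, 6 of 10 rose and 1 fell, with TIMM22, the channel, higher by 0.70 (SE 0.07, edgeR adjusted p = 0.00019). The one that fell, TIMM13, a chaperone of the intermembrane space that works with TIMM8A, was at 12.0, 11.01 and 11.6 CPM with DMSO and 3.93, 3.61 and 3.86 CPM with auxin (log2 fold change -1.60, SE 0.09, edgeR adjusted p = 1.18e-05). Among carrier-fold genes with other symbols, MTCH1, an outer membrane protein, was at 86.1, 77.9 and 78.6 CPM with DMSO and 43.7, 37.0 and 37.3 CPM with auxin (log2 fold change -1.04, SE 0.08, edgeR adjusted p = 6.13e-05). Its relative MTCH2, an insertase of the same membrane, was higher by 0.35 (SE 0.11, edgeR adjusted p = 0.036). Of 17 other mitochondrial transporters 2 rose and 5 fell, and SFXN3, a sideroflexin, fell most, by 1.79 (SE 0.18, edgeR adjusted p = 0.000154). With GC-corrected offsets the log2 fold changes were -0.51 for TIMM13, -0.37 for MTCH1 and -1.40 for SFXN3. TIMM22 and MTCH2 were named after their values were seen. With the replicate block, 15 of the 31 were higher and 11 lower, beside 7005 and 6789 of all 19725 genes tested.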

How the data were processed

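Libraries were made from total RNA depleted of ribosomal RNA with a stranded kit and sequenced paired-end, per the labels' protocols. The authors deposited a gene table and a transcript table per library with an expected count, its posterior SD and the TPM, per the file headers. The submitters' processing notes name bcl2fastq 2.20, STAR, DESeq2 and GRCh38 without roles; the annotation and the use of strand in counting are not given in the sources used here. All 58780 gene and 206761 transcript IDs matched GENCODE 29, which gave types, coordinates and exons. The 746 rows without a human gene held at most 0.00111% of a library's counts and were left out.

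Deposited expected counts were rounded, filtered with filterByExpr, scaled with TMM and tested with edgeR 4.0.16 (glmQLFit, glmQLFTest; R 4.3.3), with an adjusted p threshold of 0.05 over all genes. Retained-intron ratios used limma 3.58.1 on log2 ratios of TPM plus 0.1, in genes with both kinds of transcript and means of at least 1 TPM for the gene and 0.1 TPM for its retained-intron transcripts. Alternatives were DESeq2 1.42.0, upper-quartile and RLE factors, other filters, limma on log2(TPM + 1) and log2(TPM + 0.1), GC-corrected offsets, the replicate block, replicates 2 and 3 alone, and leaving out each library. The scripts were tested on simulated data. Coding sequences were aligned with Biopython 1.88.

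The labels call the replicates biological. Same-numbered auxin and DMSO libraries had Pearson r of deviations from group means of 0.62, 0.24 and 0.25. Differently numbered ones had -0.45 to 0.29, with 0.29 for DMSO 3 with auxin 2 and 0.16 for DMSO 2 with auxin 3. Only replicate 1 stood apart, so these values do not show that replicates 2 and 3 are paired. The numbers were used as pairs only where a pair or the replicate block is named, and the main fit had no block. Library pairs within a group differed by 37.1 to 610.3 in chi-square per degree of freedom, far above sampling noise.

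The members, lists and tests were chosen with earlier results of these data known, and no test was run over a list. Members given in full are those called with at least a 2-fold change, the 10 with the highest mean TPM, and tested close relatives; transcripts are the 6 with the largest moved share; related genes are those called with at least a 2-fold change. Epithelial markers were added after the files were seen. Of the carriers, 1 enters the counts and medians, but its own values are not reported or drawn here.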

Additional observations from a re-analysis of the deposited data

How the results depend on the processing

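Of the 28 called carriers, 9 kept direction and call under every alternative: SLC25A10, SLC25A11, SLC25A12, SLC25A22, SLC25A24, SLC25A40, SLC25A42, SLC25A45 and SLC25A52. None of the alternatives changes how reads are split between SLC25A52 and its near copy SLC25A51, so the level of SLC25A52 stays uncertain. Leaving aside GC-corrected offsets and the TPM fits, 21 did. The carriers called higher, 9, became 1 with limma on either TPM scale, 14 with GC-corrected offsets, 17 with those and the replicate block, and 8 to 10 with 1 library left out. Those called lower, 19, became 10 with limma on either TPM scale and 15 to 18 with 1 library left out. The replicate block alone gave 13 and 25. Over all genes, the 5010 called higher became 970 and 1017 in the TPM fits, 6702 with GC-corrected offsets and 8337 with the block added. The 5311 called lower became 2966 and 3223 in the TPM fits. The TPM fits moved the median of all genes by -0.14 and -0.15 on the log2 scale.

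The carriers' median log2 fold change was -0.0334 with upper-quartile factors, -0.30 on log2(TPM + 0.1), -0.0457 and -0.0473 with GC-corrected offsets, without and with the replicate block, and -0.20 to -0.14 with 1 library left out. GC-corrected offsets, without and with the block, reversed SLC25A23 (0.0715 and 0.0703), SLC25A25 (0.27 and 0.27), SLC25A28 (0.23 and 0.23), SLC25A35 (0.15 and 0.14) and SLC25A39 (0.23 and 0.23), and the fit with both also SLC25A3 (-0.0894). Under the same 2 fits rho across the carriers was 0.0128 and 0.00536 with GC, and -0.0113 and -0.00874 with intron length. Pearson's r stayed at -0.16 and -0.16 with GC, and at -0.21 and -0.21 with intron length. Those offsets are built to remove the relation with GC over all genes. Without 1 library rho was -0.40 to -0.35 with GC and 0.18 to 0.23 with intron length.

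Related genes called higher, 9, became 16 with upper-quartile factors, 2 with either TPM fit, 15 with the replicate block with or without GC offsets, 14 with replicates 2 and 3 alone, and 6 to 13 with 1 library left out. Those called lower, 8, became 5 with either TPM fit and 4 to 8 with 1 library left out. As CPM, the shares of SLC25A4, SLC25A5 and SLC25A6 differed by -1.09, -3.68 and 4.77 percentage points, and without 1 library, as TPM, by -0.48 to -0.42, -2.95 to -2.11 and 2.59 to 3.40. The share of SLC25A5 and SLC25A3 in the summed TPM differed by 1.73 points, and by -0.0145 to 3.56 without 1 library. The summed TPM differed by -415.6 to -176.3 without 1 library. Carriers with a higher retained-intron ratio, 2, became 5 with a pseudocount of 1, 4 with the replicate block and 2 to 3 without 1 library. Moved transcript shares, in 9 genes, were in 3 at a limit of 20 points and in 8 to 9 without 1 library. The cause of these changes was not tested.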

Other observations

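Among transporters outside the carrier family, the sideroflexins, inner membrane proteins that include a serine transporter, differed in direction. SFXN4 was higher (log2 fold change 0.78, SE 0.05, edgeR adjusted p = 3.61e-05) and SFXN2 was lower (-0.99, SE 0.26, edgeR adjusted p = 0.0143). SFXN1 did not pass the test (-0.02, SE 0.06, edgeR adjusted p = 0.833). These 3 genes were named after their values were seen.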
